A study of Arabidopsis thaliana with 16 samples.

Results

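The transcriptome of the wild-type *Arabidopsis thaliana* seed at 6 days after pollination (DAP) is described here from 2 RNA-seq libraries, out of 16 samples in the series and out of 6 seed RNA-seq libraries. Both come from a cross of a *pi-1* mother in the Ler accession with pollen of a wild-type Col plant, and no other cross enters any value. The libraries were chosen by their labels, which name the cross and the replicate. The *pi-1* mother carries a mutation of the floral gene *PISTILLATA* that makes it male-sterile, so that flowers need no emasculation. Each library holds the seeds of 20 siliques dissected by hand, and the labels call the libraries biological replicates. The seed coat is maternal tissue of the *pi-1* genotype, whereas embryo and endosperm are hybrids of Ler and Col. Reads were mapped to the Col genome, and the values do not separate the alleles.

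A seed of *Arabidopsis* is built of 3 compartments with different genomes. The embryo and the endosperm arise from double fertilization, and the seed coat grows from the integuments of the ovule. The endosperm first divides as nuclei without walls, then forms cells and feeds the embryo. The seed coat makes proanthocyanidins, the tannins that brown the seed, in its inner layer and a pectin-rich mucilage in its outer layer. The embryo passes from patterning to maturation, when it fills with oil and storage proteins under the control of LEC1, LEC2, FUS3 and ABI3. A level in whole seeds adds up all of these cells, and fewer cells of a type cannot be told apart from less RNA per cell.

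Levels are given as RPKM, reads per kilobase of gene and per M (mega) mapped reads, so that levels of different genes are compared per length. A gene was called expressed where it reached 1 RPKM in both libraries. Of 27206 genes listed, 17019 were expressed, which is the 62.6% against which every count of members below is read. Another 4912 genes were at 0 in both libraries, and 1670 were at 0 in 1 library only. In those 1670 genes the value of the other library had a median of 0.13 and went up to 3.41 RPKM. The median gene was at 4.81 RPKM in replicate 1 and at 4.79 RPKM in replicate 2. From the spacing of low values, the depth was estimated at 16.4 and 17.6 M reads, so 1 RPKM in a gene of 1 kb stands for about 16.4 and 17.6 reads.

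Most transcripts came from few genes. The 36 genes with a mean over 1000 RPKM held 12.1% of the summed RPKM in replicate 1 and 12.7% in replicate 2. The 1236 genes from 100 to 1000 RPKM held 42.2% and 42.1%. At the other end, the 4874 genes above 0 and up to 1 RPKM held 0.22% in each library. Replicate 1 needed 996 genes and replicate 2 needed 969 genes to reach 50% of the summed RPKM.

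**Figure D1:**
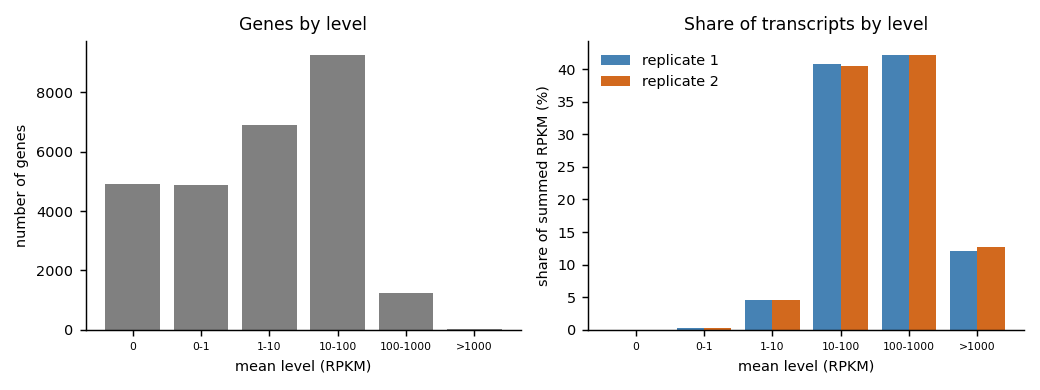
Genes and transcripts of the wild-type seed by level. The x axes give classes of mean RPKM, the left bars the number of genes and the right bars the share of the summed RPKM (%) in each library; the 9268 genes from 10 to 100 RPKM are the most numerous class and the 36 genes over 1000 RPKM hold 12.1% and 12.7%.

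The seed transcriptome was headed by small secreted and vacuolar proteins. The most abundant transcript was *GILT* (AT4G12960, chr4:7583239-7584759 in the RefSeq annotation of TAIR10.1), a member of a family of thiol reductases, with 6793 RPKM in replicate 1 and 8389 RPKM in replicate 2. A pair of neighbouring genes of the lipid-transfer protein and 2S albumin superfamily followed. *AT5G38170* had 7706 and 7235 RPKM, and *AT5G38160* had 7191 and 7052 RPKM. The values of *GILT* and *AT5G38170* overlapped between the libraries, so their order is not resolved. The lipid-transfer protein gene *LTP6* stood at 4881 and 6969 RPKM, and *LCR69*, which encodes a small cysteine-rich protein of the defensin type, at 4487 and 3794 RPKM. These 5 genes together made up 4.46% and 4.74% of the summed RPKM.

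The genes *AT5G38160* (chr5:15225767-15226208) and *AT5G38170* (chr5:15227638-15228081) lie side by side on the same strand, and another gene of the array, *AT5G38180*, follows them. *AT5G38180* was at 619 and 704 RPKM, below both neighbours in each library. The exonic sequences of *AT5G38160* and *AT5G38170* were 80.0% identical over 431 aligned bases, and their longest identical run was 18 bases, much shorter than a 150-bp read. With *AT5G38180* they were 67.6% and 65.9% identical. The stretches just before their annotated starts are shown because both genes reach about the same level and share a run of 23 bases there, printed in capitals. The *AT5G38160* window covers 60 to 31 bases before the start (chr5:15225707-15225736, plus strand), and the *AT5G38170* window 56 to 27 bases before it (chr5:15227582-15227611, plus strand).
AT5G38160: aggCTTGTCCGTTACAACTACATCTActat
AT5G38170: aaaCTTGTCCGTTACAACTACATCTAtata

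The remaining abundant transcripts belonged to a few kinds. Lipid-transfer proteins, which bind lipids outside the cell, were represented again by *LTP4* with 3509 and 2251 RPKM and by *LTP3* with 2112 and 2997 RPKM. These neighbours on chromosome 5 were 83.8% identical with a longest identical run of 44 bases, and *LTP4* was higher in replicate 1 while *LTP3* was higher in replicate 2. Cell wall and surface proteins included the early nodulin-like genes *ENODL3* (2659 and 2548 RPKM) and *ENODL4* (1180 and 1264 RPKM) and the arabinogalactan protein gene *AGP15* (1748 and 1598 RPKM). Among genes annotated as pectin methylesterases or their inhibitors, *AT5G49180* had 2062 and 2619 RPKM and *AT1G56100* had 1166 and 1522 RPKM. Proteases were represented by *DELTA-VPE*, a vacuolar processing enzyme of the seed coat, with 2191 and 2622 RPKM, and by the aspartic protease gene *ASPG1* with 2224 and 2398 RPKM.

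Some genes of the gibberellin-regulated peptide family were abundant as well, although only 7 of 15 listed genes were expressed and 6 were at 0 in both libraries. *AT5G59845* had 2352 and 2241 RPKM, and *GASA1* had 1390 and 2118 RPKM. Photosynthesis contributed *CAB1*, a light-harvesting protein of photosystem II, with 2846 and 2806 RPKM, and *RBCS1A*, a small subunit of Rubisco, with 1760 and 1826 RPKM. *CAB1* shares 89.3% to 92.0% of its aligned exonic bases with its neighbours *CAB2* and *CAB3*, with identical runs of 119 and 74 bases, so reads may have been divided between them in an uncertain way. General metabolism and translation gave *AT5G60390*, an elongation factor Tu family gene, with 2223 and 2129 RPKM, *SAMDC*, the S-adenosylmethionine decarboxylase of polyamine synthesis, with 1712 and 1802 RPKM, and *THI1*, a thiamine synthesis gene, with 1569 and 1431 RPKM. The ribosomal protein gene *AT5G18380* stood at 1353 and 1375 RPKM.

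The other genes among the 30 most abundant were *MLP28* (2460 and 2634 RPKM), *PRXR1*, a peroxidase (1583 and 1618 RPKM), *CYP709B1*, a cytochrome P450 (1280 and 1312 RPKM), *SVB* (1099 and 1498 RPKM), *AT1G62060* (2291 and 1544 RPKM) and *AT1G12080* (1203 and 1387 RPKM). The last entries are uncertain. *AT3G02468*, with 1890 and 1991 RPKM, has no gene model in the annotation used here. *AT2G01021*, with 1635 and 1314 RPKM, is a model of 102 bp on chromosome 2 that lies 626 bp from an annotated rRNA gene.

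**Figure D2:**
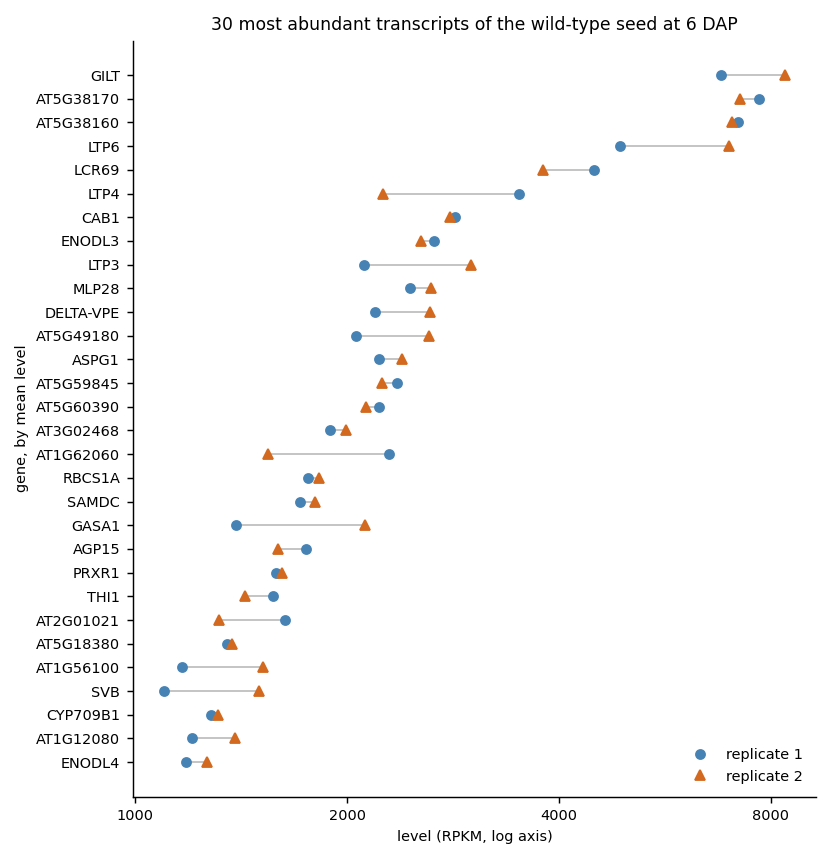
The 30 most abundant transcripts, ordered by mean level. The x axis is RPKM on a log axis, circles are replicate 1, triangles are replicate 2 and the grey line joins them; *GILT* and the pair *AT5G38170* and *AT5G38160* lead, and most neighbours in the order overlap.

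The 30 most abundant transcripts held 11.3% of the summed RPKM in replicate 1 and 11.7% in replicate 2, with a mean of 11.5% ± 0.283 (SD, n = 2). Of these genes, 28 were among the 30 highest in both libraries. Only 8 of the 29 pairs of neighbours in the order had values that did not overlap between the libraries. The largest difference between the libraries among these 30 genes, in *LTP4*, was 0.64 in size on the log2 scale. Their median exonic length was 1093 bp, against 1580 bp over all genes.

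Taken by annotated family, the lipid-transfer and 2S albumin-like proteins carried the largest share outside the ribosome among the families counted, 4.11% in replicate 1 and 4.34% in replicate 2. This share rested on few of them, since 55 of 144 listed genes were expressed and 56 were at 0 in both libraries. Ribosomal proteins held 9.05% and 8.72%, spread over 380 expressed genes of 406. The 5 GILT reductase genes held 1.17% and 1.45%, of which *AT4G12870* had 819 and 1204 RPKM and *AT4G12890* had 511 and 620 RPKM beside *GILT* itself. All 19 light-harvesting genes were expressed, at 1.23% and 1.25%, as were all 13 tubulin genes. Histone genes were expressed in 47 of 51 cases and held 0.98% and 1.12%.

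Other families had few expressed members in the seed at this age. The same held for some families with abundant transcripts, as 16 of 67 peroxidase genes and 29 of 80 LCR genes were expressed. Of 141 genes of the cysteine/histidine-rich C1 family, 7 were expressed, or 4.97%, and 72 were at 0 in both libraries. Cysteine-rich receptor-like kinases, many of which act in immune signalling, were expressed in 5 of 40 cases. TIR-NBS-LRR disease resistance genes were expressed in 20 of 88 cases and SCR-like genes in 7 of 27. Homologs of self-incompatibility proteins were expressed in 10 of 65 cases. Of 629 F-box genes, 204 were expressed, which is 32.4%.

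Among the lists named for a compartment, those of the seed coat had the highest medians. The lists differ in kind, with many enzymes in the flavonoid list and regulators in the embryo patterning list. Their medians therefore do not rank the compartments. All 13 flavonoid genes were expressed, with a median of 141 RPKM in replicate 1 and 167 RPKM in replicate 2. *TT4*, chalcone synthase at the entry of the pathway, had 974 and 1235 RPKM. *LDOX*, which makes anthocyanidins, had 341 and 441 RPKM, and *BAN*, the anthocyanidin reductase that commits them to proanthocyanidins, had 154 and 177 RPKM. *TT7*, the flavonoid hydroxylase, had 295 and 424 RPKM, and *TT3*, the dihydroflavonol reductase, had 275 and 375 RPKM. The end of the pathway was uneven, with *TT19*, a glutathione transferase for flavonoids, at 141 and 184 RPKM and the laccase *TT10* at 170 and 167 RPKM, but the vacuolar transporter *TT12* at 5.75 and 5.99 RPKM and the proton pump *AHA10* at 12.3 and 12.7 RPKM. Of the 13 genes, 10 were higher in replicate 2, with a median difference of 0.25 on the log2 scale. Over all genes with a mean of at least 1 RPKM, the median difference was -0.01 with an SD of 0.30. How many of all genes were higher in replicate 2 was not counted.

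All 15 mucilage genes were expressed, with medians of 82.5 and 60.2 RPKM. The highest was *SBT1.7*, a subtilisin-like protease that acts in mucilage release, with 919 and 938 RPKM. *MUM4*, a rhamnose synthase that supplies the pectin of mucilage, had 701 and 581 RPKM, and *BXL1*, a glycosidase of the wall, had 503 and 715 RPKM. *PMEI6*, a pectin methylesterase inhibitor, had 467 and 486 RPKM. The lowest member was *MUCI10*, a galactosyltransferase of mucilage galactoglucomannan, with 11.7 and 12.6 RPKM. *GATL5* had 97.0 and 43.2 RPKM, the only mucilage gene that differed between the libraries by more than 1 on the log2 scale.

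All 16 regulators of the seed coat were expressed, with medians of 51.1 and 56.1 RPKM. *GL2*, a homeobox factor of the mucilage-secreting epidermis, led with 210 and 258 RPKM. The MYB factor *MYB61* was next with 116 and 137 RPKM. *MYB5* had 85.6 and 109 RPKM, and the NAC factors *NAC018* and *NAC2* had 101 and 101 RPKM and 86.9 and 81.0 RPKM. The factors of the tannin layer were spread over a wide range. *TT8*, a bHLH factor, was at 94.8 and 101 RPKM, its MYB partner *TT2* at 16.5 and 22.2 RPKM, the MADS-box factor *TT16* at 7.22 and 10.3 RPKM and the zinc finger factor *TT1* at 4.80 and 7.43 RPKM. *STK*, a MADS-box factor of ovule identity, had 68.5 and 87.9 RPKM.

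**Figure D3:**
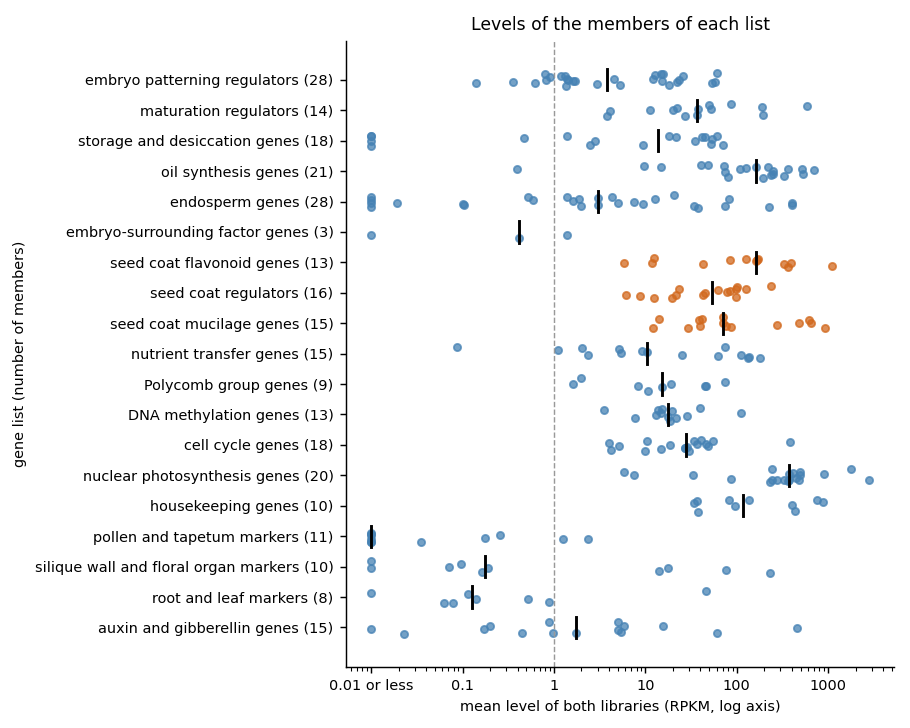
Levels of all members of the 19 lists. Each point is a gene at its mean RPKM over both libraries (log axis, with values of 0.01 or less drawn at the left edge), black bars are medians of these means, the dashed line is 1 RPKM and the seed coat lists are orange; all members of the 3 seed coat lists lie above 1 RPKM, whereas embryo and endosperm lists reach from near 0 to over 60 RPKM.

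Endosperm genes ranged widely, from *EPR1* and *ICE1* at the top down to genes listed at 0. Of 28 members, 19 were expressed, with medians of 3.0 and 3.04 RPKM, and 4 were at 0 in both libraries. At the high end stood *EPR1*, an extensin-like gene, with 467 and 341 RPKM, and *ICE1* with 436 and 373 RPKM. *ICE1* encodes the bHLH partner of ZOU, a pair required for the endosperm to break down around the growing embryo and for the embryonic cuticle. *ZOU* itself was at 32.1 and 35.5 RPKM, less than *ICE1* in each library. *ALE1*, a protease of the same cuticle pathway, had 43.0 and 31.8 RPKM, and *TWS1*, the peptide it matures, had 21.7 and 19.6 RPKM. A place in this list does not show that a gene, *ICE1* and *TWS1* included, is active in the endosperm alone. Values of whole seeds cannot tell this. The sucrose transporter gene *SUC5* had 221 and 226 RPKM, *MYB118*, a regulator of endosperm maturation, had 83.8 and 80.7 RPKM, and *HDG3*, an imprinted homeobox gene, had 76.2 and 71.3 RPKM.

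Several genes known from the early, syncytial endosperm were at or near 0. *AGL62*, a MADS-box gene that holds back the formation of cell walls, had 0.11 and 0.10 RPKM. The kinase gene *IKU2* had 0.071 and 0.13 RPKM, and the WRKY gene *MINI3* of the same growth pathway had 0 and 0.039 RPKM, whereas *IKU1* had 13.1 and 12.5 RPKM. *AGL36*, *AGL90* and the cytokinin synthesis genes *IPT4* and *IPT8* were listed at 0 in both libraries. The imprinted MADS-box genes *PHE1* and *PHE2* lay in between, *PHE1* with 2.92 and 3.10 RPKM and *PHE2* with 3.08 and 2.98 RPKM, and the values of these genes overlapped. They were 88.4% identical with a longest identical run of 120 bases, so the division of reads between them is uncertain. *YUC10*, an auxin synthesis gene, had 4.31 and 5.80 RPKM. Of the 3 genes for embryo-surrounding factor peptides, none reached 1 RPKM in both libraries, with *ESF1.2* at 0.49 and 2.27 RPKM, *ESF1.3* at 0 and 0.83 RPKM and *ESF1.1* listed at 0.

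Embryo patterning genes had medians near that of all genes, 4.14 and 3.39 RPKM against 4.81 and 4.79 RPKM. Of 28 regulators, 22 were expressed, or 78.6%. The highest were the HD-ZIP III gene *REV* of adaxial and vascular identity, with 63.4 and 57.2 RPKM, the epidermal homeobox gene *ATML1*, with 50.9 and 65.1 RPKM, and *PHB*, with 55 and 51.8 RPKM. The values of *ATML1* overlapped with those of both others, and *REV* was above *PHB* in each library. *WOX9* had 19.1 and 17.1 RPKM and *WOX8*, which marks the basal lineage of the embryo, had 15.9 and 15.5 RPKM. *MP*, an auxin response factor of root and vascular initiation, had 22.9 and 21.4 RPKM. Levels of other members reached lower. The shoot meristem gene *STM* had 1.89 and 1.49 RPKM, *CUC2* 1.54 and 1.71 RPKM, *PLT1* 1.66 and 1.06 RPKM, *WOX2* 1.01 and 1.86 RPKM, and *WUS* 0.30 and 0.41 RPKM. *DRN* was the lowest, at 0.098 and 0.18 RPKM. Several of these genes, *REV*, *PHB* and *ATML1* among them, are also active in other tissues than the embryo.

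The regulators of seed maturation were all present. All 14 members were expressed, with medians of 39.0 and 35.1 RPKM. *NF-YC2*, a subunit of the nuclear factor Y complex, led with 566 and 596 RPKM. *LEC1*, a B subunit of this complex in the embryo, had 195 and 190 RPKM, and *L1L*, the closest relative of *LEC1*, had 85.9 and 87.8 RPKM. The B3 factors *ABI3* (39.6 and 35.0 RPKM) and *FUS3* (38.4 and 35.2 RPKM) had overlapping values, and *LEC2* was lower at 11.6 and 10.7 RPKM. *WRI1*, the factor that turns on oil synthesis, had 200 and 180 RPKM. The abscisic acid factors of late maturation were the lowest, *ABI5* at 4.96 and 3.32 RPKM and *ABI4* at 3.79 and 3.79 RPKM. Differences between the libraries ran from -0.51 to 0.11 on the log2 scale.

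Genes of oil synthesis were well expressed, with 20 of 21 members past 1 RPKM and medians of 174 and 152 RPKM. *FAD2*, the oleate desaturase, had 719 and 696 RPKM, *PDH-E1A*, a subunit of plastidic pyruvate dehydrogenase, had 554 and 510 RPKM, and the ketoacyl synthase gene *KASI* had 551 and 492 RPKM. The elongase gene *FAE1* was at 123 and 92.2 RPKM, the acyltransferase gene *DGAT1* at 54.0 and 42.1 RPKM and the ketoacyl synthase gene *KASIII* at 44.2 and 37.8 RPKM. *SUS3*, a sucrose synthase, was the only member below 1 RPKM, at 0.55 and 0.25 RPKM. Of the 21 genes, 20 were higher in replicate 1, with a median difference of -0.12 on the log2 scale. Over all genes with a mean of at least 1 RPKM, the median difference was -0.01 with an SD of 0.30. How many of all genes were higher in replicate 1 was not counted.

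Storage genes differed most between the libraries. The median of the 18 storage and desiccation genes was 0.63 RPKM in replicate 1 and 22.8 RPKM in replicate 2, and 8 members were expressed. *SESA2*, a 2S albumin gene, had 3.09 and 101 RPKM, *SESA3* had 5.19 and 116 RPKM, and *SESA4* had 4.46 and 65.0 RPKM. *CRC*, a cruciferin gene, had 0.61 and 35.8 RPKM, which is a difference of 5.03 on the scale of log2(RPKM + 0.5) and the largest of all genes with a mean of at least 10 RPKM. *CRB* had 0.64 and 18.3 RPKM. Other members were high in both libraries, as *OLEO2*, an oil-body protein gene, with 74.0 and 69.0 RPKM, *SESA1* with 46.9 and 60.7 RPKM, *CRA1* with 29.2 and 54.5 RPKM and *OLEO1* with 31.7 and 58.4 RPKM. The genes of late desiccation, *EM1*, *EM6*, *M17* and *RAB18*, were listed at 0 in both libraries.

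Of the 13 storage genes with a mean of at least 1 RPKM, 8 were higher in replicate 2 by more than 1 on the log2 scale and none was lower by that much. Over all 17420 genes with such a mean, 105 were higher and 81 lower by more than 1, together 1.07%, with a median of -0.01 and an SD of 0.30. These 186 genes became 314 with a pseudocount of 0.1 in place of 0.5, 106 with a pseudocount of 1 and 387 with no filter on the mean. Among members of the other 18 of the 19 lists with such a mean, *ESF1.2* and *RBCS2B* were higher in replicate 2 by more than 1 and *GATL5* was lower. The regulators *LEC1*, *FUS3* and *ABI3* given above differed by -0.04, -0.13 and -0.17.

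**Figure D4:**
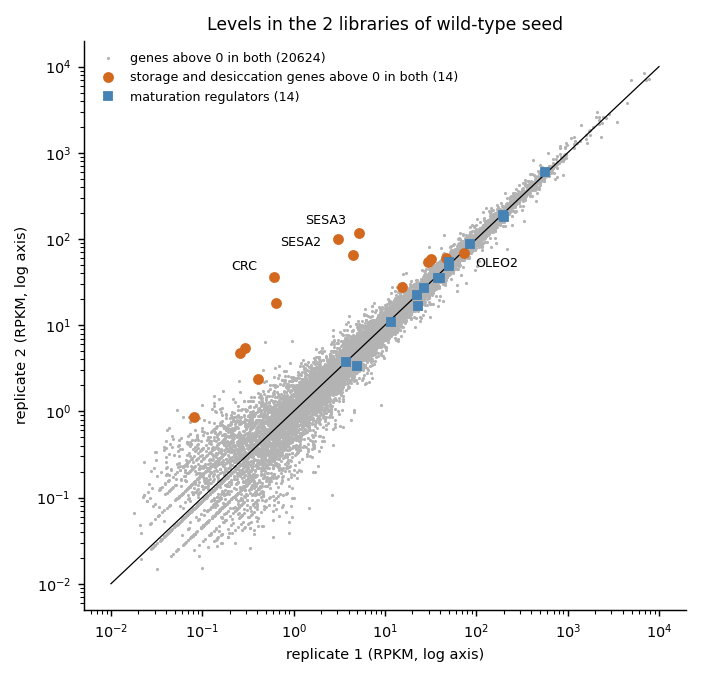
Replicate 2 against replicate 1 of the wild-type seed, in RPKM on log axes, with the line of equal levels. Grey points are 20624 genes above 0 in both libraries, orange circles are storage and desiccation genes and blue squares are maturation regulators; *SESA2*, *SESA3* and *CRC* lie far above the line, while *OLEO2* and all 14 regulators lie close to it.

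The genes *SESA1* to *SESA4* stand in a row on chromosome 4, and only *SESA1* had a similar level in both libraries. Neighbours in the row were 87.0% to 90.2% identical with longest identical runs of 38 to 49 bases. Their upstream sequences are shown because storage promoters are known for the RY motif, CATGCA, the site bound by the B3 domains of LEC2, FUS3 and ABI3. The motif was searched on both strands in the 250 bases before the annotated start, where it overlaps with itself in CATGCATG. It was found in 13 of the 18 storage genes, or 72.2%, against 8.51% of 26719 genes. All 14 storage genes with a value above 0 hold it except *CRB*, and none of the 4 genes at 0, those of late desiccation, does. The motif was chosen after these values were seen, and a link between motif and level was not tested. Among the other lists, the share was 54.5% in the 11 pollen and tapetum markers, of which 2 were expressed, and at most 33.3% elsewhere. A match is a description of the letters and not a shown binding site.
SESA1: acacgtgaactcCATGCAagtctcttttct
SESA2: acacgtgatcgcCATGCAatctcctttctc
SESA3: acacgtgattgcCATGCAaatctcctttct
SESA4: acacgtgatctcCATGCAaaactcctttct
SESA5: acacgtgaatgcCATGCAaatgtcctatct
CRC: gactgaagtcccCATGCAaacctaatccta
OLEO2: aaacttggaaatCATGCAaagccacacctc

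Capitals mark the RY match nearest to the start, on the strand of the gene. In the TAIR10.1 genome these windows lie at chr4:13607263-13607292 (*SESA1*, plus strand), chr4:13609275-13609304 (*SESA2*, plus strand), chr4:13611728-13611757 (*SESA3*, plus strand), chr4:13613528-13613557 (*SESA4*, plus strand), chr5:22239227-22239256 (*SESA5*, minus strand), chr4:14087475-14087504 (*CRC*, plus strand) and chr5:16174875-16174904 (*OLEO2*, minus strand). The match began 54 to 57 bases before the start in the 5 *SESA* genes, 69 bases before it in *CRC* and 109 bases before it in *OLEO2*. All 5 *SESA* windows open with the same 8 bases, acacgtga. The number of matches ran from 1 to 7 among the 13 genes with any, and *CRC*, with the largest difference between the libraries, holds 1.

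**Figure D5:**
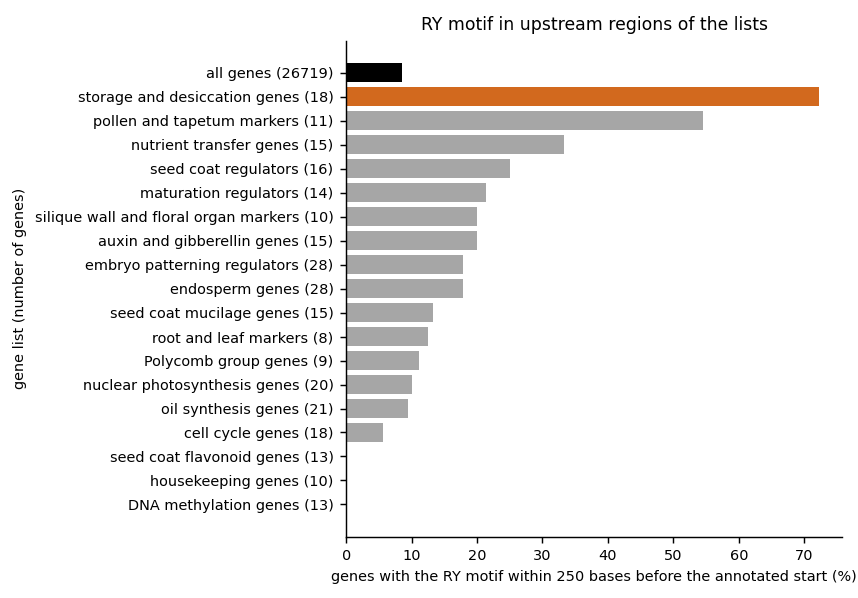
Share of genes with the RY motif within 250 bases before the annotated start (x axis, %), for all genes (black) and for each list of at least 8 genes (number of genes in brackets). The storage and desiccation genes (orange) reach 72.2%, all genes 8.51%.

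The TATA box was searched in the same genes only as the exact letters TATAAA on the strand of the gene. Other forms of the box were not counted. TATAAA stood 50 to 20 bases before the annotated start in 8.16% of 26719 genes and in 10.5% of the 4528 genes at 0. Of the 35 genes over 1000 RPKM with a gene model, 2 held it there. In the 100 bases before the start the shares were 18.1% of all genes, 23.2% of the genes at 0 and 22.9% of the genes over 1000 RPKM, so that the genes over 1000 RPKM were below all genes in the narrow window and above them in the wide one. Of the lists, the root and leaf markers (3 of 8) and the storage genes (5 of 18) had the highest shares in the narrow window. Among the 30 most abundant transcripts these exact letters were present in the narrow window only before *ENODL4* (chr4:15679673-15679702, minus strand).
ENODL4: cgcttcacccaacggcTATAAAtctcttgt

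Transfer of sugar and amino acids into the seed was represented by 13 of 15 expressed members, with medians of 9.59 and 11.7 RPKM. The highest was the amino acid exporter gene *UMAMIT25* with 197 and 158 RPKM. The sucrose exporters *SWEET11* (161 and 104 RPKM), *SWEET15* (149 and 122 RPKM) and *SWEET12* (122 and 99.3 RPKM) followed. The values of *SWEET11* overlapped with those of both others, and *SWEET12* was below *SWEET15* in each library. The amino acid permease *AAP1* had 74.9 and 71.8 RPKM. Invertases of the cell wall were low, with *CWINV4* at 8.92 and 11.7 RPKM, *CWINV1* at 2.34 and 2.42 RPKM and *CWINV2* at 0.15 and 0.027 RPKM.

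Genes of hormone synthesis and breakdown differed widely in level. Of 15 auxin and gibberellin genes, 8 were expressed. *GA20OX3* and *GA20OX2*, oxidases of gibberellin synthesis, had 495 and 418 RPKM and 54.2 and 67.2 RPKM, whereas *GA20OX1* had 1.34 and 0.62 RPKM. For the next step, *GA3OX4* had 18.6 and 12.7 RPKM and *GA3OX1* had 0.49 and 0.41 RPKM. Of auxin synthesis, *TAR2* had 3.97 and 6.16 RPKM, *TAA1* 5.48 and 5.38 RPKM, and *YUC2* was listed at 0.

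Polycomb group genes, which keep genes silent through H3K27 methylation, were all expressed, with medians of 14.7 and 15.8 RPKM. The shared subunits *MSI1* (75.0 and 73.7 RPKM) and *FIE* (47.0 and 45.4 RPKM) and the methyltransferase *SWN* (45.9 and 44.0 RPKM) were the highest. The subunits of the endosperm complex were the lowest, *MEA* at 1.31 and 1.90 RPKM and *FIS2* at 2.06 and 1.88 RPKM. All 13 genes of DNA methylation were expressed, led by *AGO4*, the Argonaute of RNA-directed DNA methylation, with 108 and 112 RPKM and the demethylase *ROS1* with 42.2 and 36.5 RPKM. *MET1*, the CG methyltransferase, had 19.7 and 19.4 RPKM, the demethylase *DME* had 19.6 and 16.1 RPKM, and *DCL3* was the lowest with 3.38 and 3.69 RPKM. All 18 cell cycle genes were expressed, and *KN*, the syntaxin of the cell plate, led with 372 and 387 RPKM. *PCNA1* had 56.2 and 54.6 RPKM and *CYCD3;1* was the lowest in replicate 2 with 4.32 and 3.68 RPKM.

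All 20 nuclear photosynthesis genes were expressed, with medians of 363 and 368 RPKM, the highest of the 19 lists. The small subunit genes of Rubisco were unequal, with *RBCS1A* far above *RBCS3B* (27.6 and 39.3 RPKM), *RBCS1B* (5.16 and 9.88 RPKM) and *RBCS2B* (3.20 and 8.35 RPKM). The 10 housekeeping genes had medians of 114 and 117 RPKM, from *GAPC1* with 919 and 846 RPKM and *ACT7* with 758 and 744 RPKM down to *PP2AA3* with 33.2 and 34.4 RPKM.

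Of 1160 genes annotated with words for transcription factors, 622 were expressed, or 53.6%, and 15 had a mean over 100 RPKM. After *NF-YC2* and *ICE1* came *AT1G06760*, annotated as a winged-helix DNA-binding transcription factor family protein, with 266 and 342 RPKM. *GL2* and the MADS-box gene *SHP2* with 218 and 243 RPKM followed. The set rests on words in the product names. It and its counts may therefore include DNA-binding proteins that are not transcription factors. MADS-box genes were expressed in 35 of 118 cases. The highest after *SHP2* were *AT1G59930* (83.9 and 112 RPKM), *AGL87* (89.8 and 90.5 RPKM), *SEP2* (75.7 and 81.6 RPKM) and *STK*. WRKY genes were expressed in 19 of 72 cases, MYB genes in 44 of 123, and nuclear factor Y subunits in 30 of 35.

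The labelled tissue was checked against markers of its compartments and of other cells. Of 10 markers each, 9 were expressed for the embryo, 7 for the endosperm and 10 for the seed coat, and the endosperm count lies near the 62.6% of all genes. The sets had summed levels of 60.8 and 56.0, 382 and 375, and 1913 and 1917 RPKM in that order. Single genes weighed heavily in these sums, *SUC5* (221 and 226 RPKM) in the endosperm set. In the seed coat set these were *MUM4* (701 and 581 RPKM) and *PMEI6* (467 and 486 RPKM). The sums therefore do not measure how much of the seed each compartment made up. Pollen and tapetum markers were expressed in 2 of 11 cases, *ANX1* (2.58 and 2.12 RPKM) and *HAP2* (1.17 and 1.31 RPKM), and 6, *MS1* and *DUO1* among them, were listed at 0. The silique wall and floral organ list was expressed in 4 of 10 cases, with a sum of 311 and 367 RPKM. Most of this sum came from *SHP2*, which also acts in ovules, and *AP3* (67.1 and 85.3 RPKM). The other expressed members were *SHP1* (14.6 and 20.6 RPKM) and *ALC* (10.6 and 17.6 RPKM). *FUL* (0.33 and 0.050 RPKM), *IND* (0.080 and 0.11 RPKM) and *PI* (0.17 and 0.16 RPKM) were near 0, and *AP1* and *CRABS CLAW* were listed at 0. Root and leaf markers were expressed in 1 of 8 cases, *MYB60*, at 32.2 and 60.7 RPKM, while *KAT1* had 0.91 and 0.84 RPKM and *COBL9* was listed at 0. The mother carries *pi-1* and is male-sterile, so *PI* and tapetum genes such as *MS1* are a limited check on its floral tissue. The part of other tissues in the seed values was not tested.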

How the data were processed

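RNA was isolated from hand-dissected seeds at 6 DAP, and poly(A) libraries were sequenced as 150-bp paired reads. The authors mapped reads with TopHat 2.1.0 to TAIR10, masked for rRNA genes and with 1 position kept per read, and deposited RPKM values per gene from GFOLD. Whether strand was used is not given in the sources used here, so reads of overlapping genes cannot be told apart. RPKM scales by mapped reads and gene length, and the summed RPKM was 697117 and 705167. Read counts were not used.

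The 2 wt columns were used of 6. Of 27206 IDs, 26719 matched the RefSeq annotation of TAIR10.1, which gave names, positions, exonic lengths and upstream sequences, and 487 did not. The reference was used with nuclear chromosomes only, and no organelle gene is in the table. Differences between libraries are log2((RPKM of replicate 2 + 0.5)/(RPKM of replicate 1 + 0.5)) over genes with a mean of at least 1. With 1 group and 2 libraries, no test was run. Depth came from low values, of which 31.2% and 32.1% lay within 0.02 of a whole read, against a median of 2.8% and 2.81% over the depths tried.

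The members and the 19 gene lists (285 entries) were chosen with earlier results of these data known. The families, the RY motif and the lists of low-oxygen and circadian clock genes were chosen after the values were seen. Named genes are the 30 highest by mean RPKM, list members with at least the 2 highest and the lowest of each list, the 10 largest differences between libraries among genes with a mean of at least 10, and the 5 highest annotated transcription factors. A few others, such as *AT5G38180*, *AT4G12870*, *AT4G12890* and the MADS-box genes, were named after their values were seen. Families were found by words in the product names. Exonic sequences were aligned with Biopython 1.88. Steps were tested on simulated data. Alternatives covered the minimum level, scaling, pseudocount, zeros, window and each library left out. Python 3.11.15, numpy 2.4.6, pandas 2.3.3 and matplotlib 3.10.9 were used.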

Additional observations from a re-analysis of the deposited data

How the results depend on the processing

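No paired analysis was possible because only 1 group of samples is described and nothing is compared between groups. The number of expressed genes stayed within 1.5 times of 17019 at minimums above 0, of 0.5 and of 5 RPKM and with each library left out, which gave 17395 and 17414. With each library left out and genes ranked anew, the 30 most abundant transcripts held 11.3% to 11.7%. Ranked by reads among genes with a gene model, the 30 highest held 8.02% of reads. Rescaling RPKM to the same sum in each library raised the list medians by its own construction, to 5.37 for embryo patterning, 52.9 for maturation regulators, 4.30 for endosperm, 220.2 for flavonoid and 102 for mucilage genes. With expressed members only, by construction, medians were 12.4 for embryo patterning, 9.46 for endosperm and 42.6 for storage genes. A minimum of 5 RPKM left 13 embryo patterning and 11 endosperm genes. With each library left out, medians were 3.39 to 4.14 for embryo patterning, 35.1 to 39.0 for maturation regulators, 0.63 to 22.8 for storage, 3.0 to 3.04 for endosperm, 141 to 167 for flavonoid and 60.2 to 82.5 for mucilage genes, so the storage median rests on replicate 2. Of genes past 1 between the libraries, 186 became 314 with a pseudocount of 0.1, 106 with a pseudocount of 1 and 387 with no filter, while the count of storage genes past it was 8 or 9. In a window of 100 bases the share with TATAAA was 18.1% of all genes and 22.9% of genes over 1000 RPKM, which turned their order round. Without the uncertain entries *AT3G02468* and *AT2G01021*, an alternative chosen after seeing the data, the 30 highest of the remaining genes held 11.4%. With 2 libraries a spread rests on 1 difference, and below 1 RPKM values rest on few reads.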

Other observations

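The remaining genes of the 10 largest differences between the libraries, beside the storage genes, were mixed in kind. *PGL5*, a 6-phosphogluconolactonase gene, had 30.2 RPKM in replicate 1 and 80.8 RPKM in replicate 2. The lipid-transfer family gene *AT1G55260* had 44.2 and 111 RPKM, *AT5G56100*, annotated as glycine-rich or oleosin, had 5.97 and 15.5 RPKM, and *MLP31* had 15.7 and 39.5 RPKM. In the other direction, the fasciclin-like gene *FLA5* had 217 and 76.3 RPKM and the desaturase gene *FTM1* had 76.7 and 30.9 RPKM. Among the 10540 genes with a mean of at least 10 RPKM, 13 were over 1 and 13 under -1 on the log2 scale, and 97.5% lay within 0.5.

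Genes of the response to low oxygen, which make ethanol and regulate that pathway, were higher in replicate 1 in all 12 cases of a list made after the values were seen. *ADH1*, alcohol dehydrogenase, had 62.1 and 29.5 RPKM, *PDC1*, pyruvate decarboxylase, had 60.9 and 25.1 RPKM, and the factor *HRE2* had 3.5 and 0.66 RPKM, whereas *LBD41* was nearly equal with 133 and 128 RPKM. *SUS1* (23.8 and 23.6 RPKM) and *HRE1* (2.46 and 2.44 RPKM) were nearly equal too, and *SUS4* had only 0.33 and 0.18 RPKM. Of the 12 genes, 3 were lower in replicate 2 by more than 1 on the log2 scale. The median difference was -0.44 over the 11 members with a mean of at least 1 RPKM. Over all 17420 genes with such a mean it was -0.01. How many of all genes were higher in replicate 1 was not counted. Of 10 clock genes, the morning genes *LHY* (12.0 and 27.4 RPKM) and *CCA1* (4.50 and 7.63 RPKM) were higher in replicate 2, and *PRR5* was lower with 2.25 and 0.70 RPKM. *TOC1* (27.2 and 26.2 RPKM), *GI* (19.3 and 18.2 RPKM) and *PRR7* (24.9 and 26.1 RPKM) were close in both.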
